A study of Homo sapiens with 12 samples.

Results

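The subunits of the SWI/SNF chromatin remodelling complexes were followed through a pooled CRISPR knockout screen for growth under lapatinib. A single guide RNA (sgRNA) was counted as a member when the gene column of the count table named SMARCA4, SMARCA2, SMARCB1, SMARCC1, SMARCD1, SMARCE1, ARID1A, ARID1B, ARID2 or PHF10. This gave 60 sgRNAs, 6 for each of 10 genes, in a table of 20915 genes. The table has 123411 entries, among them 2000 named dummyguide, which were used here as control guides. The screen used N87 and OE19, established HER2-amplified lines that the labels call gastric cancer. Every library came from cells that carried the GeCKO V2 lentiviral library in the lentiCRISPR v2 vector at a multiplicity of infection of about 0.3 and had gone through 7 days of puromycin, at 0.75 µg/mL for N87 and 1.5 µg/mL for OE19. Baseline cells were harvested after puromycin, and the others after 14 further days with DMSO vehicle or with lapatinib, a dual inhibitor of the kinases EGFR and HER2, at 0.5 µM in N87 and 1 µM in OE19. Each of the 6 conditions had 2 libraries. Per the labels, each line was infected in 2 separate replicates. What was sequenced is genomic DNA with the integrated sgRNA, so a count measures how common the cells carrying that sgRNA were, and neither the edit at the target nor the loss of the protein was measured in these libraries.

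SWI/SNF complexes use ATP to slide or evict nucleosomes and so open promoters and enhancers to transcription factors. They carry a motor, SMARCA4 (BRG1) or SMARCA2 (BRM). The classes compared here are the canonical BAF complex, which carries ARID1A or ARID1B, and the PBAF complex, which carries ARID2 and PHF10. Several subunits are tumour suppressors: SMARCB1 is lost in rhabdoid tumours, and ARID1A is among the chromatin genes most often mutated in gastric cancer. The core subunits SMARCB1, SMARCC1, SMARCD1 and SMARCE1 occur in both complexes.

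Total counts ran from 13105805 to 33743599 per library, and the median sgRNA had between 57 and 238 counts. The OE19 lapatinib libraries were the shallowest, with medians of 57 and 94. The control guides moved with the drug. Their log2 changes under lapatinib against vehicle correlated between replicates (r = 0.892 for N87, 0.589 for OE19), whereas those of vehicle against baseline hardly did (0.0324 and 0.0149, each across 2000 guides, which are not independent replicates). In N87 under lapatinib, 52.3% of the tested control guides passed the sgRNA test, against 2.21% in OE19 and none in either line without drug. The SD of these changes under lapatinib against vehicle was 1.21 and 0.93 in the N87 replicates, and 0.85 and 0.54 in those of OE19. A change of 1 sgRNA under lapatinib is therefore read beside that background in both lines, also where both replicates show it. The part that such shared changes had in any single value was not tested.

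Level here means the log2 change of a library from the mean of its line's 2 baseline libraries, as the median over the sgRNAs of a gene. In OE19 the SMARCB1 level was -0.84 and -0.32 in the vehicle libraries and 0.93 and 1.11 in the lapatinib libraries. SMARCE1 stood at -0.53 and -0.46 with vehicle, and at 1.37 and 0.98 with lapatinib. ARID1A stood at -1.13 and -0.48 with vehicle, and at 1.00 and 0.72 with lapatinib. In these 3 genes all vehicle libraries lay below 0 and all lapatinib libraries at 0.72 or above. SMARCA4 was at -0.18 and 0.05, then 0.51 and 0.35. ARID1B was at -0.04 and 0.16, then 0.26 and 0.60. In both genes the lapatinib libraries were the higher, by less than in the former 3. PHF10 went the opposite way, from 0.63 and 0.17 with vehicle to -0.32 and -0.44 with lapatinib. ARID2 (0.11 and 0.17, then 0.05 and 0.13), SMARCC1 (0.10 and -0.15, then 0.20 and -0.21) and SMARCD1 (-0.29 and 0.13, then -0.25 and -0.05) overlapped between the conditions. SMARCA2 was at 0.22 and -0.06, then -0.31 and -0.10, with both lapatinib libraries the lower. Over all genes, both lapatinib libraries lay above both vehicle libraries in 22.7% and below them in 26.5%.

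In N87, SMARCE1 had the lowest levels with vehicle, at -0.68 and -0.76, and was at -0.81 and -1.24 with lapatinib. ARID1A was at 0.09 and 0.39 with vehicle and below its baseline at -1.12 and -0.54 with lapatinib, the reverse of its order in OE19. SMARCB1 went from -0.25 and -0.11 to 0.17 and 0.32, the 1 subunit whose lapatinib libraries were both above its vehicle libraries. That was so for 37.5% of all genes. The vehicle levels of the other 7 lay between -0.33 (SMARCD1) and 0.41 (ARID1B), and their lapatinib levels between -0.62 (PHF10) and 0.22 (ARID1B).

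In OE19, sgRNAs against SMARCB1 and SMARCE1 rose under lapatinib, and those against ARID1A had a median of similar size without passing the gene test. The median log2 change of lapatinib over vehicle was 1.88 ± 0.72 for SMARCB1, 1.29 ± 0.92 for SMARCE1 and 1.61 ± 0.75 for ARID1A (SD over 6 sgRNAs). In the order of medians over all 20890 genes these stood at places 10, 32 and 12. A gene was called by robust rank aggregation, which asks whether its sgRNAs crowd the top of the list of sgRNAs ordered by edgeR's one-sided p, with Benjamini-Hochberg adjustment over all genes. The adjusted p was 0.0226 for SMARCB1, 0.0226 for SMARCE1 and 0.0725 for ARID1A. Thus 2 of 10 subunits were called higher, where 20 genes were called in all, or 0.0957%, and no subunit and no other gene was called lower. Of 58 member sgRNAs tested, 10 rose in edgeR's own test (17.2%, against 2.33% of all sgRNAs) and none fell (0.0795% of all). The subunits were chosen with earlier results of these data known, so these shares do not test the group. Of all sgRNA calls 96.7% were higher, and 82.5% were with scaling to total counts. No subunit was called lower by DESeq2 either, and 1, PHF10, had an unadjusted p under 0.05.

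SMARCB1 (INI1) is a core subunit that touches the nucleosome's acidic patch. Its gene lies on chromosome 22, 24129118 to 24180196 on the plus strand (GRCh37). All 6 of its sgRNAs were above 0 in the lapatinib comparison. HGLibB_46564 began at 280.3 and 261 normalized counts in the baseline replicates, stood at 124 and 176 under vehicle, and reached 891 and 667 under lapatinib. HGLibA_53908 went from 160.1 and 223 through 107 and 155 to 390.1 and 609.8. HGLibB_46566 went from 151 and 122 through 83.3 and 88.5 to 240.2 and 371. These 3 sgRNAs passed edgeR's test, with log2 changes of 2.36, 1.93 and 1.83. HGLibA_53907 went from 58.3 and 61.1 through 17.7 and 46.5 to 132 and 113. For the remaining pair the libraries overlapped. HGLibA_53909 stood at 148 and 167 with vehicle against 155 and 312 with lapatinib, and HGLibB_46565 at 51.6 and 87.4 against 67.2 and 166. The gene's call was lost without lapatinib replicate 2 (median 1.53, adjusted p = 0.716), without vehicle replicate 1 (1.52, 0.0632) and with counts summed over sgRNAs (1.63, 0.0522).

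SMARCE1 (BAF57) is a core subunit with an HMG domain that binds DNA. Its gene lies on chromosome 17, 38781214 to 38804906 on the minus strand. In OE19, HGLibA_53926 began at 144 and 194 normalized counts, had 90.7 and 115 under vehicle and reached 635 and 453 under lapatinib. HGLibB_46583 went from 193 and 178 through 129 and 137 to 685 and 577, and HGLibA_53927 from 159 and 193 through 111 and 167 to 395 and 352. Those 3 sgRNAs passed edgeR's test, with log2 changes of 2.39, 2.22 and 1.42. HGLibB_46582 and HGLibB_46584 were sparse, between 12.5 and 37.6 with vehicle and between 37.2 and 72.3 with lapatinib, and in both the lapatinib libraries were the higher. HGLibA_53925 alone was not raised, with 234 and 137 under vehicle against 181 and 172 under the drug. The call was lost without lapatinib replicate 1 (median 1.11, adjusted p = 0.373), without lapatinib replicate 2 (1.50, 0.473), without vehicle replicate 1 (1.66, 0.0632), with the replicate number as a block (1.39, 0.0646), with DESeq2 (1.32, 0.249) and with scaling to total counts (0.83, 0.295).

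ARID1A (BAF250A) is the ARID subunit that, in turn with its paralog ARID1B, marks canonical BAF. Its gene lies on chromosome 1, 27019727 to 27108595 on the plus strand. In all 6 of its sgRNAs both OE19 lapatinib libraries lay above both vehicle libraries, which was so for 23.9% of all tested sgRNAs. HGLibB_02880 began at 249.8 and 263 normalized counts, had 111 and 142 under vehicle and reached 778 and 622 under lapatinib. HGLibA_02882 went from 225 and 276 through 93.6 and 201 to 527 and 425, and HGLibA_02883 from 112 and 126 through 78.2 and 63.6 to 225 and 196. Those 3 passed edgeR's test, with log2 changes of 2.45, 1.69 and 1.54. HGLibA_02881 went from 125 and 142 through 63.4 and 102 to 235 and 158. HGLibB_02879 went from 31.3 and 27.6 through 1.47 and 19.3 to 64.6 and 46.5, and HGLibB_02881 from 193 and 162 through 209 and 183 to 271 and 293. The gene passed the threshold with the replicate number as a block (median 1.65, adjusted p = 0.00953), with DESeq2 (1.63, 0.00466) and with total counts (1.15, 0.00509). It also passed with ranks up to 0.25 (1.61, 0.0138) and with counts summed over sgRNAs (1.50, 0.0431). It did not pass with median-of-ratios scaling (1.63, 0.0693), control-guide scaling (1.73, 0.0886) or no count filter (1.61, 0.0695). Its median was 1.51 without lapatinib replicate 1 and 1.75 without lapatinib replicate 2. It was 1.35 without vehicle replicate 1 and 1.96 without vehicle replicate 2.

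The remaining subunits did not pass in OE19 under lapatinib. SMARCA4, the motor found in most cells, had a median of 0.48 ± 0.46 with 5 of 6 sgRNAs above 0 (gene-level adjusted p = 0.905). Its highest sgRNA, HGLibA_53897, went from 54.6 and 68.1 normalized counts under vehicle to 178 and 130.3 under lapatinib. SMARCA2, the alternative motor, had a median of -0.28 ± 0.61 with 2 of 6 above 0. SMARCC1 (BAF155), a scaffold of the core, had a median of 0.03 ± 0.78, but 1 of its sgRNAs rose. That sgRNA, HGLibA_53912, stood at 251 and 236 with vehicle and 1051 and 515 with lapatinib (edgeR log2 change 1.66, adjusted p = 0.0249), and its other sgRNAs lay between -0.66 and 0.24. SMARCD1 (BAF60A), a bridge to transcription factors, had a median of -0.25 ± 0.29. ARID1B, the paralog that replaces ARID1A in canonical BAF, had a median of 0.07 ± 0.39 over 5 tested sgRNAs, with 4 above 0. Its sixth sgRNA, HGLibA_02886, stayed at or below 12.4 normalized counts in every library and was not tested in OE19.

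The PBAF subunits lay near or below 0 in the same comparison. ARID2, the DNA-binding scaffold of PBAF, had a median of -0.11 ± 0.55, with 3 of 6 sgRNAs above 0. PHF10 (BAF45A), a PHD-finger subunit, had the lowest median of the 10 subunits at -0.75 ± 1.15 over 5 sgRNAs (gene-level adjusted p for lower, 0.548). HGLibA_44620, HGLibB_37286 and HGLibB_37287 stood at 112 and 95.3, 95.8 and 70.4, and 170.3 and 126 with vehicle. With lapatinib they stood at 59.4 and 38.8, 41.3 and 35.7, and 85.2 and 93.1, so both libraries were lower in each, as in 24.1% of all sgRNAs. HGLibA_44622 went the other way, from 598 and 557 with vehicle to 2537 and 967 with lapatinib, and its edgeR adjusted p was 0.144. Counted by sgRNA medians against baseline, 5 subunits had both lapatinib libraries above both vehicle libraries (SMARCA4, SMARCB1, SMARCE1, ARID1A and ARID1B; 22.7% of all genes) and 2 below (SMARCA2 and PHF10; 26.5%).

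Without drug, sgRNAs against ARID1A fell in OE19. Their median change over the 14 days with vehicle was -0.78 ± 0.58, with 5 of 6 sgRNAs below 0 and both vehicle libraries below both baseline libraries in those 5, as in 21.8% of all sgRNAs (gene-level adjusted p = 0.0245). Against baseline the medians of the vehicle libraries were -1.13 and -0.48. ARID1A was 1 of 319 genes called lower (1.53%). No subunit was called higher, nor was any other gene. DESeq2 called no subunit higher either, and 0 had an unadjusted p under 0.05. Of the member sgRNAs, 1 of 58 fell in edgeR's test, HGLibB_02880 of ARID1A (0.893% of all sgRNAs), and none rose (0.0114% of all). The ARID1A call was lost without baseline replicate 2 (median -0.65), without vehicle replicate 1 (-0.51, 0.451) and with scaling to the control guides (-0.96, 0.580).

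SMARCB1 and SMARCE1 had lower medians in OE19 without drug too, without passing the gene test. The SMARCB1 median was -0.63 ± 0.26, with 6 of 6 sgRNAs below 0 (adjusted p = 0.596, and 0.0123 with ranks up to 0.25). The SMARCE1 median was -0.32 ± 0.30, with 5 of 6 sgRNAs below 0 (adjusted p of 1, though called with counts summed over sgRNAs). PHF10 had the highest median of the subunits at 0.43 ± 0.16, with 5 of 5 tested sgRNAs above 0 and an adjusted p of 1, and it stood at place 46 of 20894 genes by median. ARID2 (0.18 ± 0.19) and ARID1B (0.19 ± 0.18) each had 4 sgRNAs above 0. The medians of SMARCA4, SMARCA2, SMARCC1 and SMARCD1 lay between -0.11 and 0.14. The vehicle libraries serve in this comparison and in that of lapatinib with vehicle, so a low vehicle count enters both with opposite sign.

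Set directly against baseline, the same 3 genes had medians above 0 in OE19 with lapatinib, and SMARCE1 passed. The medians were 1.16 ± 0.71 for SMARCE1 (adjusted p = 0.0423), 1.10 ± 0.50 for SMARCB1 (0.0503) and 0.84 ± 0.31 for ARID1A (0.139), with 5, 6 and 6 of 6 sgRNAs above 0. SMARCE1 was thus the 1 subunit called higher, among 26 genes (0.124%), and no subunit was called lower (0.129% of genes), with 0 at an unadjusted p under 0.05 and 0 by DESeq2. The 6 sgRNAs of SMARCA4 were also all above 0, with a median of 0.34 ± 0.37 (adjusted p = 0.907; -0.14 with scaling to total counts). No member sgRNA passed alone, and of all 122367 sgRNAs 1 did (0.000817%, higher). The SMARCE1 call did not hold without any 1 of the 4 libraries (adjusted p from 0.163 to 0.699), nor with the replicate block (0.270), DESeq2 (0.148), total counts (0.165), control-guide scaling (0.109) or summed counts (0.0906). SMARCB1 passed with median-of-ratios scaling (0.0438) and with no count filter (0.0475).

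In N87 without drug, sgRNAs against SMARCE1 fell and those against ARID1B rose. The SMARCE1 median was -0.75 ± 0.47, with 5 of 6 sgRNAs below 0 (adjusted p = 0.0434; 489 genes were called lower, 2.34%). HGLibA_53926 stood at 112 and 89.3 normalized counts at baseline and 62.6 and 55.1 with vehicle. HGLibB_46583 went from 142 and 125 to 78.0 and 83.4, and HGLibA_53927 from 124 and 119 to 74.9 and 87.6. HGLibA_53925, which had not risen with lapatinib in OE19, did not fall either, at 175 and 202 against 175 and 222. The call was lost with the replicate block (median -0.75, adjusted p = 0.0620), with summed counts (-0.43, 0.0730), and without baseline replicate 1 (-0.60, 0.103), vehicle replicate 1 (-0.79, 0.133) or vehicle replicate 2 (-0.70, 0.0849).

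The ARID1B median in N87 was 0.29 ± 0.21, with 4 of 5 tested sgRNAs above 0 (adjusted p = 0.0381; 12 genes were called higher, 0.0574%). HGLibB_02883 stood at 203 and 225 normalized counts at baseline and 242 and 329.5 with vehicle, HGLibB_02882 at 653 and 604 against 724 and 822, and HGLibB_02884 at 334 and 304 against 373 and 428. In each of them both vehicle libraries were the higher, as in 18.9% of all sgRNAs. HGLibA_02884 and HGLibA_02885 overlapped, at 69.8 and 80.9 against 52.5 and 93.4, and at 116 and 80.9 against 95.8 and 103. The call was lost without baseline replicate 1 (median 0.34, adjusted p = 0.513), baseline replicate 2 (0.24, 0.610) or vehicle replicate 2 (0.18, adjusted p of 1), and with control-guide scaling (0.20, 0.0875), no count filter (0.20, 0.0635) or summed counts (0.27, 0.143).

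ARID1A in N87 had a median of 0.24 ± 0.34, with 6 of 6 sgRNAs above 0 (adjusted p = 0.566). SMARCB1 had 6 of 6 sgRNAs below 0 there as in OE19, but the median was only -0.20 ± 0.12 (adjusted p of 1). The other subunits had medians between -0.23 (SMARCD1) and 0.15 (PHF10). No member sgRNA passed edgeR's test alone, and of all 122948 tested sgRNAs none rose and 49 fell (0.0399%).

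The drug-free change of ARID1A differed between the lines. The interaction of line and time gave a median of -1.08 ± 0.86 (OE19 minus N87), with 6 of 6 sgRNAs below 0 and a gene-level adjusted p of 7.37e-06. By median ARID1A stood at place 20890 of 20894 genes, from the highest. It was the 1 subunit among 40 genes called lower (0.191%), while 8 genes and no subunit were called higher (0.0383%). The 6 values ran from -2.72 for the sparse HGLibB_02879 to -0.09 for HGLibB_02881, with HGLibA_02882 at -1.19, HGLibB_02880 at -1.15, HGLibA_02881 at -0.91 and HGLibA_02883 between the last 2. No member sgRNA passed edgeR's test alone, where 0.00325% of all sgRNAs were called lower. DESeq2 too called no subunit higher, and 1 had an unadjusted p under 0.05. In normalized counts, HGLibA_02882 went from 225 and 276 to 93.6 and 201 in OE19 and from 298 and 281 to 364 and 385 in N87. HGLibB_02880 went from 249.8 and 263 to 111 and 142 in OE19 and from 318 and 317 to 327 and 359.6 in N87. ARID1A was called lower in each of the 16 alternative gene tests, with medians from -1.29 to -0.83 and a highest adjusted p of 0.0380.

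The PBAF subunits lay on the other side of 0 in that interaction. ARID2 had a median of 0.26 ± 0.17 with 6 of 6 sgRNAs above 0 (adjusted p = 0.958), and PHF10 a median of 0.30 ± 0.25 with 5 of 5 (adjusted p of 1). SMARCB1 had a median of -0.34 ± 0.34 (0.930 for lower) and SMARCE1 of 0.22 ± 0.56 (adjusted p of 1), so the fall of SMARCE1 in N87 was not shown to differ from its change in OE19. ARID1B differed by 0.07 ± 0.25 (adjusted p of 1 in both directions).

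In N87 under lapatinib, no subunit passed the gene test in either direction. Over all genes, none was called higher and 3 were called lower (0.0144%). At an unadjusted p under 0.05 the subunits counted 2 higher and 0 lower, and all genes were not counted at that level. DESeq2 called no subunit, and edgeR on counts summed over each gene's sgRNAs called 5 higher and 2 lower, where it called 6754 and 6726 of all genes. Single sgRNAs moved widely: 17 of 56 tested member sgRNAs rose (30.4%, against 31.2% of all sgRNAs) and 15 fell (26.8%, against 29.9%). Of all sgRNA calls 51.1% were higher, and the share was 29.7% with total counts and 39.4% with control-guide scaling. In 8 of 10 subunits sgRNAs of the same gene were called in opposite directions, as they were in 73.4% of all genes. SMARCB1 and SMARCE1 were the exceptions, with 3 and 1 sgRNAs called higher and none lower. By sgRNA medians against baseline, 1 subunit had both lapatinib libraries above both vehicle libraries (37.5% of all genes) and 5 had them below (43.2%).

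The sgRNAs that rose most in N87 with lapatinib did so in both replicates, beside others of the same gene that fell. For SMARCD1, HGLibA_53917 went from 51.0 and 38.4 normalized counts with vehicle to 899 and 627 with lapatinib, and HGLibA_53918 from 56.4 and 31.7 to 782 and 805. HGLibA_53916 of the same gene went from 98.8 and 80.1 to 22.3 and 31.2, and HGLibB_46575, at 12.4 and 16.7 with vehicle, was at 0 in both lapatinib libraries. SMARCD1 had the highest median of the subunits, 1.50 ± 2.92 over 5 tested sgRNAs, with an adjusted p of 0.256. HGLibB_46575 was below the count filter and did not enter that median. With it included, the SMARCD1 levels overlapped, at -0.04 and -0.33 with vehicle and -0.35 and -0.12 with lapatinib. For PHF10, HGLibB_37287 went from 137 and 105 to 1119 and 1234 and HGLibA_44620 from 64.9 and 88.4 to 639.5 and 497, while HGLibB_37286 went from 66.4 and 57.6 to 7.42 and 18.0. Both of the risen PHF10 sgRNAs were among those that were lower with lapatinib in OE19. For ARID1B, HGLibB_02883 went from 242 and 329.5 to 2069 and 2418, and for SMARCA4, HGLibB_46552 went from 167 and 140.2 to 1496 and 1173.

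ARID1A had the lowest median in N87 under lapatinib, -0.90 ± 1.07, with 4 sgRNAs called lower and HGLibA_02882 called higher. That sgRNA went from 364 and 385 with vehicle to 1058 and 795, and HGLibB_02880, the ARID1A sgRNA with the highest counts in OE19 under lapatinib, from 327 and 359.6 to 197 and 228. SMARCB1 had a median of 0.37 ± 1.12. Its HGLibA_53908 rose in both lines, from 159 and 210.2 to 795 and 595 in N87, but HGLibB_46564, the highest SMARCB1 sgRNA with lapatinib in OE19, stood at 267 and 247 against 231 and 287 in N87. SMARCE1 had a median of 0.02 ± 1.04 over 5 tested sgRNAs, and here HGLibA_53925 was the sgRNA that rose, from 175 and 222 to 466 and 368. With its untested sgRNA included, the SMARCE1 levels were lower with lapatinib (-0.81 and -1.24) than with vehicle (-0.68 and -0.76). SMARCA2 (-0.44), SMARCC1 (-0.51), ARID2 (-0.06) and SMARCA4 (-0.02) had medians with SDs from 0.62 to 1.85. Against baseline, N87 with lapatinib gave 18 member sgRNAs called higher and 20 lower of 57 (31.6% and 35.1%, against 33.7% and 33.6% of all; 29.7% of all calls were higher with total counts and 35.4% with control-guide scaling), in both directions in 10 of 10 subunits (78.1% of all genes). No subunit passed the gene test there, where none of all genes were called higher and 28 lower (0.134%). At an unadjusted p under 0.05, where all genes were not counted, 3 subunits were higher and 0 lower. DESeq2 called no subunit, and summed counts 4 higher and 2 lower, where they called 7338 and 7452 of all genes.

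The lapatinib effects of the lines were compared through the interaction of line and treatment, in which line and dose cannot be told apart because N87 received 0.5 µM and OE19 1 µM. No subunit passed the gene test, where 4 genes were called higher in OE19 (0.0191%) and none lower. The unadjusted p was under 0.05 for 3 subunits in each direction, a level at which all genes were not counted. DESeq2 called no subunit. Summed counts called 4 higher (SMARCB1, SMARCC1, SMARCE1 and ARID1A) and 1 lower (SMARCD1), where they called 5140 and 4217 of all genes. The differences were 2.42 ± 1.05 for ARID1A, with 6 of 6 sgRNAs above 0 (adjusted p = 0.584), 2.09 ± 1.75 for SMARCE1 with 4 of 6 (0.511) and 1.27 ± 1.56 for SMARCB1 with 5 of 6 (0.873). The call of SMARCB1 and SMARCE1 in OE19 and its absence in N87 was therefore not shown as a difference between the lines. Of the member sgRNAs 18 of 58 were called higher and 10 lower, against 20.7% and 20.5% of all sgRNAs. Of all calls 50.2% were higher, and 69.1% were with control-guide scaling.

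Pooled by complex, the medians over the BAF sgRNAs and over the PBAF sgRNAs lay on opposite sides of baseline in OE19, which did not hold for each subunit. The 2 BAF subunits, ARID1A and ARID1B with 12 sgRNAs, had medians of -0.49 and -0.11 in the vehicle libraries and 0.73 and 0.68 in the lapatinib libraries, as log2 change from baseline. The 2 PBAF subunits, ARID2 and PHF10, stood at 0.26 and 0.17 under vehicle, then at -0.15 and -0.15 under lapatinib. The 4 core subunits with 24 sgRNAs had -0.46 and -0.14 with vehicle and 0.44 and 0.47 with lapatinib, and the 2 ATPases 0.03 and -0.01 with vehicle and 0.34 and 0.24 with lapatinib. Within BAF the lapatinib values came mainly from ARID1A (1.00 and 0.72) rather than ARID1B (0.26 and 0.60), and within the core from SMARCB1 and SMARCE1. Within PBAF only PHF10 was below baseline with lapatinib (-0.32 and -0.44), and ARID2 was above it in both libraries (0.05 and 0.13). In N87 with lapatinib the BAF medians were -0.76 and -0.09, those of PBAF -0.42 and -0.10, those of the core -0.30 and -0.44 and those of the ATPases -0.18 and -0.34. With scaling to total counts the OE19 lapatinib medians were 0.02 and 0.39 for BAF and -0.86 and -0.44 for PBAF, while those of the core (-0.27 and 0.18) and the ATPases (-0.37 and -0.06) changed sign in 1 or both libraries. With scaling to the control guides the BAF medians were 0.62 and 0.63, those of PBAF -0.25 and -0.20, and the PBAF medians with vehicle came to 0.04 and 0.01. These scalings of the class medians were chosen after the data were seen. With 2 libraries a condition, the smallest p of an exact two-sided permutation test is 0.333, so these class values are given without a test.

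The other 21 SWI/SNF genes in the library stayed close to 0 in OE19 under lapatinib. None was called, 11 had medians above 0, and the medians ran from -0.34 for PBRM1 and -0.33 for BRD7, both PBAF subunits, to 0.33 for BCL7C and 0.33 for the BAF subunit DPF2. Over all genes the median of medians was -0.02, over these 21 it was 0.02 and over the 10 subunits 0.05. Both lists were chosen with earlier results of these data known, so their contrast is not a test. Without drug in OE19 the lowest were ACTL6A (-0.38), an actin-like subunit, and SMARCC2 (-0.37), the paralog of SMARCC1, and the highest PBRM1 (0.22) and DPF3 (0.20), with 0 of 21 called. In N87 without drug ACTL6A fell (-0.46 ± 0.37, adjusted p = 0.0179), a call lost without baseline replicate 1 (0.136), without vehicle replicate 2 (0.858) and with summed counts (0.0614). ACTB was at -0.17, SMARCD2 at 0.21 and DPF3 at 0.22. In N87 under lapatinib the lowest were BCL7C (-1.60) and BCL11A (-1.04) and the highest DPF3 (1.72) and BRD9 (1.11), and none passed.

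Genes of other remodellers did not pass in OE19 under lapatinib: 0 of 10 ISWI genes, 0 of 19 CHD and NuRD genes, 0 of 30 genes of INO80, SRCAP and TIP60 and 0 of 9 PRC2 genes were called, with list medians of -0.22, -0.19, 0.21 and 0.05. Without drug in OE19, RBBP4, a histone chaperone of NuRD and PRC2 listed with NuRD, fell (-0.72, adjusted p = 0.00583), as did EP400 of TIP60 (-0.47, 0.0478, lost without any 1 of the 4 libraries and with ranks up to 0.25). ACTR6 of SRCAP was called lower (adjusted p = 0.00225) with a median of 0.01 over 6 sgRNAs. Of these, 2 were below 0, and both were called lower in edgeR's own test. In N87 without drug the ATPase SMARCA5 of ISWI (-0.49, adjusted p = 0.0408), INO80C (-0.69, 9.59e-05) and the helicase RUVBL1 (-0.68, 0.000396) fell. The SMARCA5 call was lost without any 1 of the 4 libraries and with the replicate block, and that of RUVBL1 without baseline replicate 1 (0.0722). INO80C was lower against baseline with lapatinib in N87 as well (-1.99, 0.0226), and lost that call without 3 of the 4 libraries and with the replicate block, DESeq2, total counts and control-guide scaling.

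The genes whose course over the 12 libraries was most like that of each called subunit were found by Pearson's r of the median log2 change from baseline, among 18908 genes with at least 5 tested sgRNAs. The libraries share their baselines and their lines, so r is a description. For SMARCE1 they were C19orf43 (r = 0.989) and the NuRD subunits CHD4 (0.967) and GATAD2A (0.960). In OE19 under lapatinib CHD4 and GATAD2A had median changes of 0.27 and 0.64, neither called. For SMARCB1 they were PYCRL (0.961), PRRC2A (0.958) and IFI30 (0.940), for ARID1A DUS3L (0.956), INSL3 (0.952) and C2orf83 (0.948), and for ARID1B TPM2 (0.902), SESN2 (0.868) and C9orf117 (0.867). Among the subunits themselves, SMARCA4 ran closest to SMARCE1 (0.868), SMARCB1 (0.827) and ARID1A (0.768). In the order of r over all compared genes it stood at places 86, 85 and 464. Between SMARCB1 and ARID1A r was 0.663, between SMARCE1 and ARID1A 0.732, and between SMARCB1 and PHF10 -0.811.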

How the data were processed

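The values deposited by the authors are whole-number read counts per sgRNA in 12 libraries, with no normalization. Per the study's methods and the submitters' processing notes, the authors made these counts by trimming reads, passing them through FastQC (0.11.5), aligning them to the library sequences with Bowtie (the notes give Bowtie2 2.3.2) and merging the samples. They scored genes with MAGeCK (the notes give 0.5.6) and edgeR. Of these programs only edgeR was run here, and robust rank aggregation, which MAGeCK also uses, was computed separately. The sequences and cut sites of the sgRNAs were not used here.

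sgRNAs with at least 40 counts over the 4 libraries of a comparison were tested with edgeR 4.0.16 (R 4.3.3, quasi-likelihood test, TMM factors, no replicate block). Each direction's p-values were turned into ranks. Robust rank aggregation over ranks below 0.05 then scored every gene that had 2 or more tested sgRNAs against the exact distribution for uniform ranks, with Benjamini-Hochberg adjustment over all genes for each direction and a threshold of 0.05. The 2 interactions used 8 libraries and at least 80 counts. The value of a gene is the median of edgeR's log2 fold changes over its sgRNAs, and the SD given with it is theirs. Normalized counts use median-of-ratios factors. The log2 changes from baseline use a pseudocount of 1. The fits and the rank aggregation were tested on simulated data. Alternatives were median-of-ratios, total-count and control-guide scaling, no count filter, DESeq2 1.42.0, a rank limit of 0.25, counts summed over sgRNAs, the replicate block, the mean over sgRNAs and each library left out in turn. Coordinates are from GENCODE on GRCh37.

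The members, the gene lists and the tests were chosen with earlier results of these data known. All 10 subunits are named, the list genes past the threshold, the 2 highest and 2 lowest other SWI/SNF genes in 4 comparisons, and the 3 genes most like each called subunit. How many of all genes had an unadjusted p under 0.05 was not counted, so the subunits at that level stand without a background. Counts are PCR reads without molecular identifiers. The sgRNA p-values measure the spread between 2 infection replicates. The gene-level p-values compare the ranks of a gene's sgRNAs with uniform ranks. Those sgRNAs were counted in the same libraries, so the gene-level p-values do not measure the spread between infections.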

Additional observations from a re-analysis of the deposited data

Results flagged for a closer look

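The drug-free change of ARID1A differed between the lines, with a median over 6 sgRNAs of -1.08 (OE19 minus N87) and an adjusted p of 7.37e-06 for the interaction in edgeR followed by rank aggregation. All 6 sgRNAs were below 0. In OE19 the ARID1A sgRNAs fell with vehicle (median -0.78, adjusted p = 0.0245), and in N87 their median was 0.24 (0.566).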

How the results depend on the processing

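Of the counts of called subunits, those of the drug-free interaction (1 lower, 0 higher) stayed within 1.5 times their value under every alternative. Those of OE19 lapatinib against vehicle (2 higher, 0 lower) did so except where 1 library was left out, but the subunits behind them changed. They were SMARCB1 and ARID1A with total counts, DESeq2 or the replicate block, and SMARCE1 and ARID1A with summed counts. With ranks up to 0.25 SMARCB1, SMARCE1 and ARID1A were called. Counts summed over sgRNAs gave 5 higher and 2 lower in N87 lapatinib against vehicle, 4 and 2 against baseline, and 4 and 1 in the lapatinib interaction, where the gene test had given 0. Of all genes they gave 6754 and 6726, 7338 and 7452, and 5140 and 4217 in these comparisons. In OE19 vehicle against baseline the 1 subunit called lower became 0 with control-guide scaling, 2 with ranks up to 0.25 and 3 with summed counts. In N87 vehicle against baseline the 1 called higher became 0 with control-guide scaling, no count filter or summed counts, and the 1 called lower 0 with summed counts or the replicate block. In OE19 lapatinib against baseline the 1 called higher became 2 with median-of-ratios scaling, no count filter or ranks up to 0.25, and 0 with total counts, control-guide scaling, DESeq2, summed counts or the replicate block. Leaving out 1 library gave 0 to 3 called higher in OE19 lapatinib against vehicle, 0 to 1 lower in OE19 vehicle against baseline, 0 to 1 higher and 0 to 1 lower in N87 vehicle against baseline, and 0 higher in OE19 lapatinib against baseline. In these fits the lone library of an arm is assumed to vary like the others. The median of no called subunit changed sign. That of ACTR6, called lower in OE19 vehicle against baseline under each of these alternatives, did: it was 0.01, and -0.18 with control-guide scaling, -0.48 with summed counts, -0.10 without baseline replicate 2 and -0.58 as a mean over sgRNAs. The causes were not tested.

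The replicate numbers were not taken as pairs, since the labels do not say that they mark a shared infection and there are only 2. Same-numbered vehicle and lapatinib libraries correlated in their replicate differences with r = 0.0622 in N87 and 0.0332 in OE19, baseline and vehicle libraries with 0.238 and 0.0759, and baseline and lapatinib libraries with 0.0334 and 0.0399. With the replicate block 2 subunits were called higher in OE19 lapatinib against vehicle (SMARCB1 and ARID1A), and 1 lower in OE19 vehicle against baseline.

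Over all genes, in OE19 lapatinib against vehicle 20 were called higher, 9 to 40 over the settings and 6 to 14 with a library left out. In OE19 vehicle against baseline 319 were called lower (285 to 1244, and 191 to 309) and 0 higher (0 to 104, and 0 to 1). In N87 vehicle against baseline 489 were called lower (312 to 836, and 177 to 517) and 12 higher (6 to 16, and 0 to 25). In OE19 lapatinib against baseline 26 were called higher (0 to 37, and 6 to 13) and 27 lower (0 to 39, and 14 to 48). In N87 lapatinib against baseline 28 were called lower (11 to 7452, and 2 to 35) and 0 higher (0 to 7338, and 0 to 3), and against vehicle 3 lower (2 to 6726, and 0 to 5). In the lapatinib interaction 4 were called higher (0 to 5140, and 0 to 5) and 0 lower (0 to 4217), and in the drug-free interaction 40 lower (10 to 51, and 16 to 47) and 8 higher (1 to 10, and 0 to 27). Over the whole library the median log2 change with lapatinib against vehicle was -0.07 in N87 and -0.02 in OE19, -0.59 and -0.46 with total counts, and -0.34 and 0.10 with control-guide scaling. Depth was lowest in the OE19 lapatinib libraries, and sgRNAs of few counts there limit what single changes can show.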
